A study of Homo sapiens with 12 samples.

Results

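Untreated HT1080 cells that carried a guide RNA against an LTR8B element in the first intron of SP140 were compared with untreated HT1080 cells that carried a guide RNA against GFP. The libraries were chosen by their labels and count columns: 4 LTR8B libraries and 2 GFP libraries, 6 of the 12 in the series. All 16393 genes with enough counts to be tested were described. HT1080 is a human fibrosarcoma line, and both sets of cells stably expressed dCas9, a Cas9 that binds DNA without cutting it, together with 1 guide. The labels call the genotypes dCas9_CRISPRi_GFP and dCas9_CRISPRi_LTR8B.SP140, and all cells were kept under blasticidin and puromycin, which select for dCas9 and for the guide. The remaining 6 libraries came from the same genotypes after 4 h with 10 U/mL of interferon beta (IFNB), as 2 GFP and 4 LTR8B libraries. They share no library with the untreated comparison and are given beside it.

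The labels name 1 guide target per genotype and do not say whether the cells of a genotype were a clone or a pool. An effect of the guide and a difference between the lines therefore cannot be told apart. Nothing in the labels says that replicates were separate cultures, and the spread behind each p-value is that between these libraries, which may be technical.

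CRISPR interference holds dCas9 at a chosen DNA element and lowers transcription that depends on it. LTR8B is a long terminal repeat left by an endogenous retrovirus, and such repeats can act as promoters or enhancers of nearby genes. SP140 belongs to a family of nuclear body proteins, with SP100, SP110 and SP140L, that bind chromatin through SAND, PHD and bromodomain modules. It is best known from lymphocytes and macrophages, where it keeps genes silent and restrains type I interferon.

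Total counts in the 6 untreated libraries ran from 19354070 to 28801579. Levels are given as CPM, counts per 1e+06 after TMM scaling. Where a library had a count of 0, the limit of 3 counts lay between 0.104 and 0.155 CPM, for counting error only. Replicates differed by more than sampling noise (chi-square over its degrees of freedom, 4.44 to 15.5). In a principal component analysis of the 6 libraries the first component held 30.6% of the variance and put both GFP libraries below all 4 LTR8B libraries (at most -12.01 against at least -2.32). The second, with 26.7%, split the LTR8B libraries, with replicates 1 and 3 at 7.95 and 13.5 and replicates 2 and 4 at -14.5 and -15.0. Mitochondrially encoded genes took 3.69 and 3.80% of the counts in the GFP libraries and 3.86 to 4.55% in the LTR8B libraries, and the part of this difference in the results was not tested.

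The labelled cell type matched some of its markers. VIM lay between 3063 and 3953 CPM and CDH2 between 81.4 and 91.02 CPM. SPARC lay between 235 and 312 CPM and FN1 between 213 and 432 CPM. The epithelial marker EPCAM and the haematopoietic marker PTPRC stayed at or below 0.155 CPM. Other markers of these cell types were high, with KRT8 at 225 to 300 CPM, KRT18 at 132 to 155 CPM and LCP1 at 847 to 1110 CPM. The fibroblast markers COL1A1 (1.24 to 2.69 CPM), COL1A2 (0.277 to 0.907 CPM) and THY1 (0.0922 to 0.189 CPM) were low or near 0 in both genotypes.

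SP140, the targeted gene, was nearly lost. Its level was 30.8 and 29.8 CPM in the GFP libraries and 1.84, 0.515, 1.51 and 1.13 CPM in LTR8B replicates 1 to 4. The groups did not overlap, and the LTR8B mean was 4.13% of the GFP mean. This is a log2 fold change of -4.55, with SE 0.20 and an edgeR adjusted p = 3.18e-09. The difference in mean log2(CPM + 1) was -3.84, with an exact two-sided permutation p = 0.0667, the smallest p that the 15 arrangements of 2 and 4 libraries can give. In bulk RNA a lower level in every cell and a smaller share of expressing cells cannot be told apart.

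SP110, an interferon-inducible member of the same family, fell as well. It was at 27.5 and 24.8 CPM in the GFP libraries and at 16.1, 16.2, 16.3 and 19.5 CPM in LTR8B replicates 1 to 4. The groups did not overlap (log2 fold change -0.62, SE 0.09, edgeR adjusted p = 0.00144). Without GFP replicate 1 the call ended (adjusted p = 0.0845). In the annotation of GENCODE release 29 the SP140 and SP110 gene models overlap on opposite strands. Whether counting used strand is not known here, so reads from the overlap cannot be assigned to either gene. In the IFNB libraries SP110 was at 206 and 199 CPM with the GFP guide and at 162 to 183 CPM with the LTR8B guide, a log2 fold change of -0.22 that missed the threshold (SE 0.08, edgeR adjusted p = 0.344). The difference between the treatments was 0.40 (SE 0.12, unadjusted p = 0.0033, edgeR adjusted p = 0.996).

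The RefSeq starts of SP140 and SP110 lie head to head, 100 bases apart. Their promoter windows, from 250 bases before to 50 bases after each start (RefSeq, GRCh38.p14), are shown because these were the genes of the locus past the threshold. The windows are chr2:230225486-230225785 on the plus strand for SP140 and chr2:230225587-230225886 on the minus strand for SP110. Capitals mark the 199 bases that lie inside both windows, read 5′ to 3′ on each gene's own strand.
SP140: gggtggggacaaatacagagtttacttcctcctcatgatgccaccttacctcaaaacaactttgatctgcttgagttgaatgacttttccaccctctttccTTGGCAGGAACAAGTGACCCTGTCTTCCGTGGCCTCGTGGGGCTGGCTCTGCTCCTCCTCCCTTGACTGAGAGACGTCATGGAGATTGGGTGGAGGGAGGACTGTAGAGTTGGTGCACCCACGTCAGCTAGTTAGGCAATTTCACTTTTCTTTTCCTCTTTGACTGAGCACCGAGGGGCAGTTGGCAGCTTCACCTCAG
SP110: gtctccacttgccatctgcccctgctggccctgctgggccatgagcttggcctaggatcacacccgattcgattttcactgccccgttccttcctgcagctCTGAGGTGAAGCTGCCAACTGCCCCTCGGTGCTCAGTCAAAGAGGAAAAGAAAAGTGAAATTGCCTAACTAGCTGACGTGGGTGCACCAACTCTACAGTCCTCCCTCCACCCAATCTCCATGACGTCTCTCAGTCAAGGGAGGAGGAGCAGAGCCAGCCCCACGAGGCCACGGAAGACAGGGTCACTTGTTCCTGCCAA
The sequence of the guide and the coordinates of the LTR8B element are not used here, so their distance from these starts is not given.

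The other paralogs of the family did not pass the threshold, and their groups overlapped. SP140L was at 44.2 and 40.7 CPM with the GFP guide and at 38.8 to 44.5 CPM with the LTR8B guide (log2 fold change -0.02, SE 0.08, edgeR adjusted p = 0.957), and its sign turned in some alternatives. SP100, which marks PML nuclear bodies together with PML, was at 97.8 and 100.2 CPM against 92.9 to 99.9 CPM (log2 fold change -0.06, SE 0.06, edgeR adjusted p = 0.746). Of the 4 family members 2 fell, where 0.116% of all tested genes fell. These 2 were SP140, the target of the knockdown, and SP110, whose gene model overlaps it. The count is therefore no measure of the family as a whole.

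Around SP140, 16 genes within 1 Mb were tested, 12 of them with a mean of at least 1 CPM, and SP140 and SP110 were the 2 past the threshold. The next nearest to it were FBXO36, an F-box protein gene (log2 fold change -0.65, SE 0.22, edgeR adjusted p = 0.266), and PID1, an adaptor of lipoprotein receptor signalling (0.31, SE 0.11, edgeR adjusted p = 0.291). FBXO36 was at 2.61 and 2.73 CPM with the GFP guide and at 1.59 to 1.77 CPM with the LTR8B guide, which did not overlap. The other 8 genes with a mean of at least 1 CPM lay between -0.12 (ITM2C) and 0.15 (ARMC9) on the log2 scale.

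**Figure D1:**
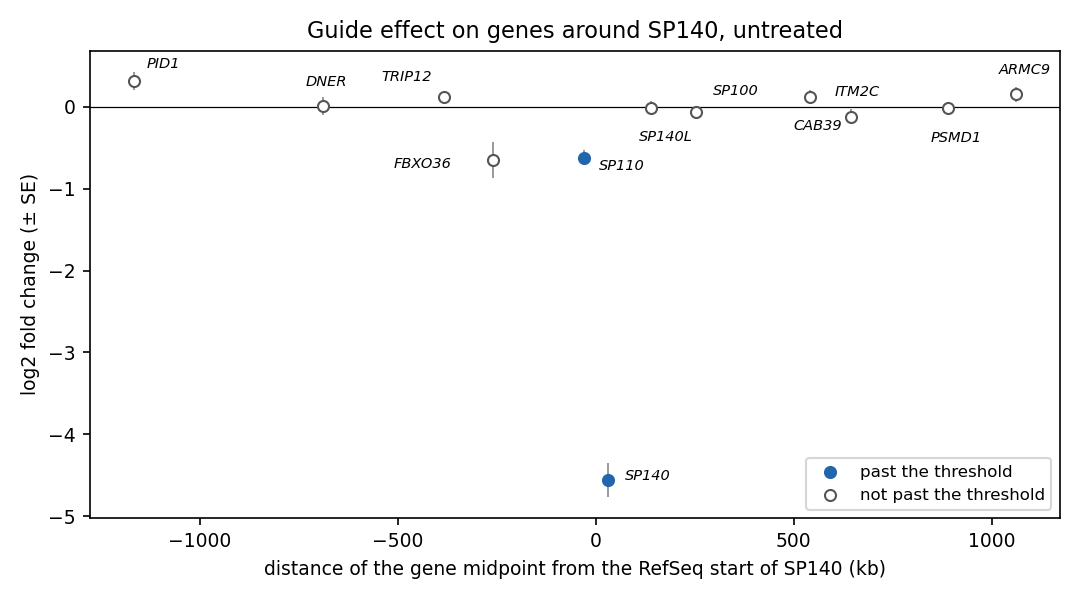
Log2 fold change (LTR8B guide over GFP guide, untreated, ± SE) of the 12 genes with a mean of at least 1 CPM within 1 Mb of SP140, against the distance of each gene's midpoint from the RefSeq start of SP140 in kb. SP140 at -4.55 and SP110 at -0.62 are past the threshold, and the other 10 points are not.

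Across the transcriptome the comparison called few genes. Of 16393 tested genes 59 passed an adjusted p of 0.05 (0.36%), 40 higher (0.244%) and 19 lower (0.116%) with the LTR8B guide, and 52 of them are protein coding. By at least 2-fold 16 were higher and 7 lower. Over all tested genes the median log2 fold change was 0.01, 91.7% lay within 0.5 of 0, and 1840 genes (11.2%) had an unadjusted p under 0.05. Of the genes with a mean CPM below 1, 2 of 2685 were called, and of those above 100 CPM, 10 of 2227. All 59 genes were free of overlap between the 2 groups, as were 19.6% of all tested genes, which follows in part from their selection.

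**Figure D2:**
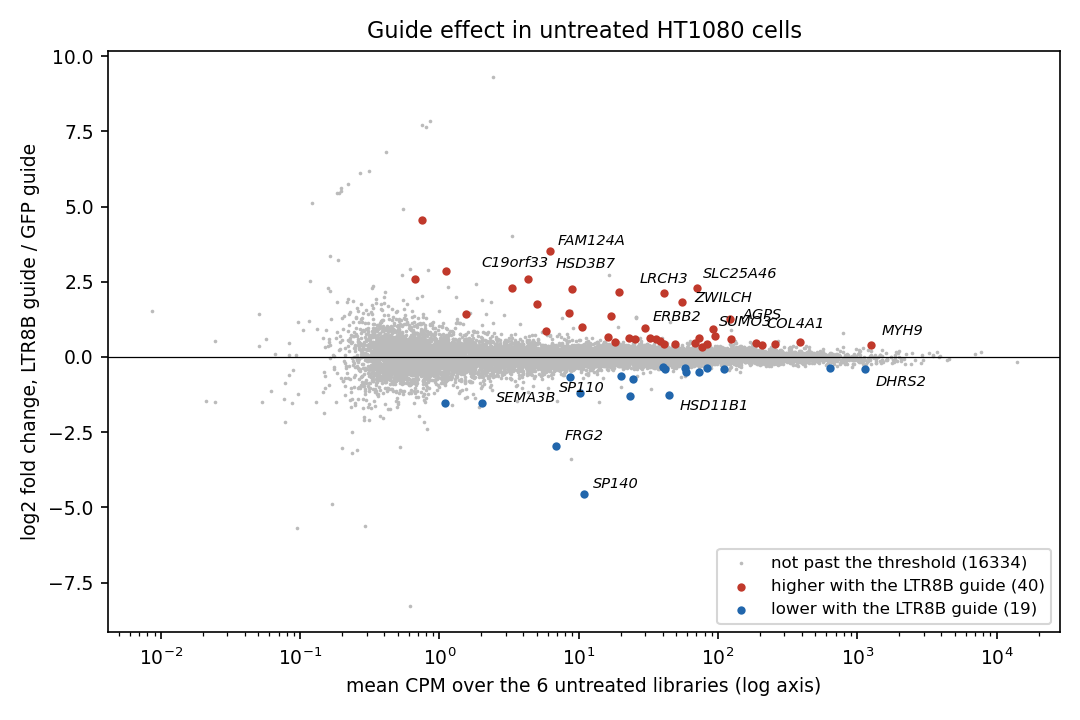
Log2 fold change (LTR8B guide over GFP guide) of all 16393 tested genes against the mean CPM of the 6 untreated libraries on a log axis. The 40 genes past the threshold and higher with the LTR8B guide (red) and the 19 lower (blue) span low to high expression, and SP140 at -4.55 is the lowest of them.

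The calls leaned on the 2 GFP libraries. Without GFP replicate 1, 30 of the 59 were no longer past the threshold, and without GFP replicate 2, 37. Leaving out an LTR8B library ended 4 to 17 of the calls. In all, 19 of the 59 stayed past the threshold whichever untreated library was left out, 17 of them higher and 2, SP140 and FRG2, lower.

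Well-expressed genes with large increases included LRCH3, SLC25A46 and ZWILCH. LRCH3, which encodes a leucine-rich repeat protein that binds DOCK exchange factors, was at 12.2 and 13.1 CPM with the GFP guide and at 56.7, 52.5, 55.5 and 56.6 CPM in LTR8B replicates 1 to 4. Its log2 fold change of 2.13, with SE 0.08, had the smallest adjusted p of the comparison (edgeR adjusted p = 9.22e-11). SLC25A46, an outer membrane protein that shapes mitochondrial fusion and fission, was at 19.4 and 19.97 CPM against 102, 80.1, 109 and 90.5 CPM (log2 fold change 2.28, SE 0.12, edgeR adjusted p = 3.20e-09). The RZZ complex subunit ZWILCH, which holds the spindle checkpoint at unattached kinetochores, was at 21.8 and 18.8 CPM against 73.9, 72.6, 67.7 and 77.5 CPM (log2 fold change 1.84, SE 0.10, edgeR adjusted p = 4.67e-09). Every LTR8B library lay above both GFP libraries by more than 3-fold in each of these genes. The ZWILCH model overlaps the ribosomal protein gene RPL4 on the opposite strand, and RPL4 itself was at -0.06 (edgeR adjusted p = 0.754).

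Promoter windows of these increases (RefSeq, GRCh38.p14, plus strand) are shown to set beside those of SP140 and SP110. Capitals mark each CG dinucleotide, the site of most DNA methylation in human cells. The windows are chr3:197791004-197791303 for LRCH3, chr5:110738757-110739056 for SLC25A46 and chr15:66505076-66505375 for ZWILCH.
LRCH3: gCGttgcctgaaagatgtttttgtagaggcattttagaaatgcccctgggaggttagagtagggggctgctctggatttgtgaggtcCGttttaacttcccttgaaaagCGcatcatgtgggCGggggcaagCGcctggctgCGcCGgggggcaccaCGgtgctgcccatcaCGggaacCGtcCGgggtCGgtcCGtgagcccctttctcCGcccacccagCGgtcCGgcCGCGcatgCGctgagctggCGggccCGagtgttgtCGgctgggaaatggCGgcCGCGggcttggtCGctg
SLC25A46: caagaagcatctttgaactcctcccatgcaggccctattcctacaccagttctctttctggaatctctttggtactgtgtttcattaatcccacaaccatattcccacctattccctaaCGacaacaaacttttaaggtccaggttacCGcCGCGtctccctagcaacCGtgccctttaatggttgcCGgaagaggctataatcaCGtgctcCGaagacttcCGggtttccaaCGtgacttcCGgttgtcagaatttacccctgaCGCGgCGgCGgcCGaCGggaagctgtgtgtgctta
ZWILCH: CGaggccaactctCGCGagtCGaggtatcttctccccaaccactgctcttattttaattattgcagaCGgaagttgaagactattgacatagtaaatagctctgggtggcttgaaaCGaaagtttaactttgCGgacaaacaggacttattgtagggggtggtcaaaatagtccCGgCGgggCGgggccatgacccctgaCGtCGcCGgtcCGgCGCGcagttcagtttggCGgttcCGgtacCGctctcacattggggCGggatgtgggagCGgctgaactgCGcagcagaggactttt
They held 26, 17 and 22 CG dinucleotides in 300 bases, against 5 for SP140 and 8 for SP110. Of 11407 tested genes with a window, the median was 26, and 9.15% held no more than SP140. The 27 called higher genes with a window had a median of 28, with 16 of the 27 at or above the median of all. The 13 called lower had a median of 9, with 3 of the 13 at or above the median of all. Only the first listed window of each gene was counted. These counts describe sequence alone, and their part in the changes was not tested.

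Enzymes of lipid and steroid metabolism moved in both directions. AGPS, a peroxisomal enzyme of ether lipid synthesis, was at 64.1 and 63.1 CPM with the GFP guide and at 155, 134, 162 and 155 CPM in LTR8B replicates 1 to 4 (log2 fold change 1.25, SE 0.09, edgeR adjusted p = 4.71e-07). HSD3B7, which acts early in bile acid synthesis, was at 2.42 and 2.73 CPM against 11.5, 13.2, 11.8 and 12.4 CPM (log2 fold change 2.25, SE 0.18, edgeR adjusted p = 1.66e-06). HSD11B1, which turns cortisone into cortisol, was at 58.4 and 88.4 CPM against 34.9, 29.2, 34.1 and 23.2 CPM (log2 fold change -1.26, SE 0.22, edgeR adjusted p = 0.0453). None of these groups overlapped, but the GFP libraries were 1.5 times apart for HSD11B1. Its call ended without GFP replicate 2 (adjusted p = 0.529) and without any 1 of the LTR8B libraries (from 0.0705 to 0.0965). Of 13 tested enzymes of steroid and bile acid metabolism, HSD3B7 rose and HSD11B1 fell, where 0.36% of all tested genes passed. The list median was 0.08 against 0.01 over all genes. The nearest others were SRD5A1 (0.22, edgeR adjusted p = 0.364) and HSD17B11 (0.21, adjusted p = 0.510).

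Next to AGPS, the noncoding locus ENSG00000213963.6 was at 0.0378 and 0.0471 CPM in the GFP libraries, 1 count each, and at 0.968, 1.13, 1.57 and 0.771 CPM in the LTR8B libraries (edgeR adjusted p = 3.92e-04). Its model reaches base 177392691 of chromosome 2 on the minus strand, and the AGPS model starts at 177392644 on the plus strand. The 2 models thus lie head to head and overlap only at that edge. The noncoding locus also lies over NFE2L2, an antioxidant transcription factor gene, on the same strand. NFE2L2 itself was at 98.3 and 95.1 CPM against 102 to 114 CPM (log2 fold change 0.15, edgeR adjusted p = 0.443).

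Several signalling genes rose. ARRB1, the receptor scaffold beta-arrestin 1, was at 7.26 and 9.47 CPM with the GFP guide and at 22.8, 21.2, 22.9 and 19.2 CPM with the LTR8B guide (log2 fold change 1.37, SE 0.13, edgeR adjusted p = 1.82e-05). The pseudokinase gene PRAG1 went from 5.78 and 6.08 CPM to 24.4, 28.3, 24.8 and 27.5 CPM (log2 fold change 2.14). ERBB2, the HER2 receptor tyrosine kinase, rose by 0.98 (SE 0.11, edgeR adjusted p = 1.66e-04), from 15.2 and 21.1 CPM to between 33.2 and 38.4 CPM. All 3 stayed past the threshold whichever library was left out, and their groups did not overlap. ERBB2 overlaps MIEN1 (-0.05, edgeR adjusted p = 0.860) and PGAP3 (-0.06, adjusted p = 0.921) on the opposite strand. DUSP3, a phosphatase of MAP kinases, rose by 0.93 (SE 0.08, edgeR adjusted p = 2.25e-06), from 56.2 and 58.7 CPM to between 102 and 118 CPM.

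Among the other increases were MSRB1, HDDC3 and H2BC15. MSRB1, which repairs oxidised methionine, was at 3.25 and 4.62 CPM with the GFP guide and at 11.8, 9.94, 11.0 and 10.3 CPM with the LTR8B guide (log2 fold change 1.46, SE 0.17, edgeR adjusted p = 1.77e-04). HDDC3, a phosphohydrolase, was at 6.58 and 6.08 CPM against 12.7, 13.9, 12.6 and 11.5 CPM (log2 fold change 1.00), while UNC45A, which overlaps it on the other strand, was at 0.13 (edgeR adjusted p = 0.565). H2BC15, a histone H2B gene, was at 0.794 and 1.04 CPM against 3.87, 3.66, 4.86 and 5.55 CPM (log2 fold change 2.30, SE 0.27, edgeR adjusted p = 1.77e-04). Histone genes are near-identical copies, so reads may be shared among them. The H2BC15 model also overlaps H2AC16 on the same strand and H2AC15 and H2BC16P on the other. Their means over all 12 libraries were 0.00384, 0.144 and 0 CPM. The libraries were of polyA RNA, so these values cover polyadenylated histone RNA and not all histone RNA. Of 16 tested replication histone genes H2BC15 was the 1 that passed, where 0.36% of all tested genes passed. Next were H4C8 (0.60, adjusted p = 0.272), H3C10 (0.67, adjusted p = 0.393) and H2AC6 (0.20, adjusted p = 0.457).

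Some increases were in genes of low level. FAM124A, on chromosome 13, was at 0.378 and 1.22 CPM with the GFP guide and at 9.91, 8.29, 7.94 and 9.26 CPM with the LTR8B guide (log2 fold change 3.52, SE 0.31, edgeR adjusted p = 1.02e-05). C19orf33 was at 1.06 and 0.895 CPM against 6.55, 7.78, 4.42 and 5.09 CPM (log2 fold change 2.58), and the noncoding RNA TRIM52-AS1 was at 1.85 and 2.03 CPM against 5.90, 7.42, 5.73 and 7.05 CPM (log2 fold change 1.75). These genes stayed past the threshold whichever library was left out. The TRIM52-AS1 model overlaps CTC-338M12.4 on the same strand (mean 9.80 CPM over all 12 libraries), so reads may be shared between them. SUSD2, a cell surface protein gene, was at 0.227 and 0.188 CPM against 2.54, 1.08, 1.27 and 1.39 CPM (log2 fold change 2.87). ZNF114, a zinc finger protein gene, was at 0.869 and 0.565 CPM against 1.57, 2.37, 2.44 and 1.49 CPM (log2 fold change 1.44), and SPNS3, a predicted lipid transporter, rose by 2.59 from 0.189 CPM or less. Without GFP replicate 1 and without GFP replicate 2 the edgeR adjusted p was 0.237 and 0.438 for SUSD2, 0.148 and 0.806 for ZNF114 and 0.151 and 0.622 for SPNS3. ZNF114 was further lost without LTR8B replicate 2 (0.0587) or 3 (0.103), and SPNS3 without LTR8B replicate 4 (0.0734).

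**Figure D3:**
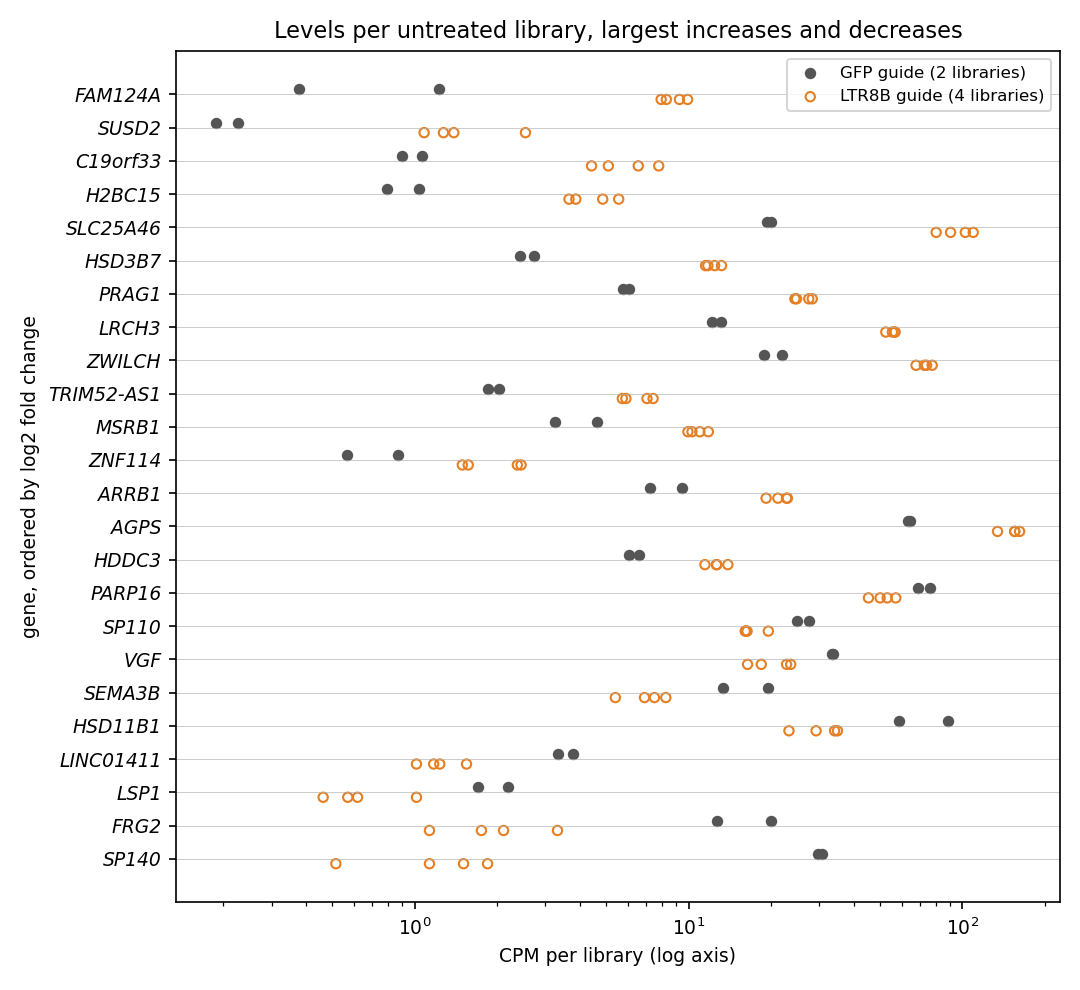
CPM in each of the 6 untreated libraries, on a log axis, for the 15 largest increases and 9 of the largest decreases among called genes with a symbol and a mean of at least 1 CPM, ordered by log2 fold change. GFP libraries are filled and LTR8B libraries open. The 2 sets do not overlap for any of the 24 genes. SP140, which has the lowest log2 fold change, is at 0.515 to 1.84 CPM with the LTR8B guide.

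Among decreases beyond the SP140 locus, the subtelomeric gene FRG2 fell most. It was at 12.7 and 20.1 CPM with the GFP guide and at 3.32, 1.75, 2.11 and 1.13 CPM with the LTR8B guide (log2 fold change -2.96, SE 0.33, edgeR adjusted p = 0.00133). FRG2 has near-identical copies on other chromosomes, so its reads are uncertain. Of 12 FRG and DUX4 region genes 3 were tested and FRG2 fell, where 0.116% of all tested genes fell. FRG1 (-0.13, adjusted p = 0.589) and FRG1BP (-0.01, adjusted p = 0.994) did not pass. DUX4 was at 0 counts in every untreated library.

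The noncoding RNA LINC01411 was at 3.33 and 3.77 CPM in GFP libraries and at 1.01, 1.55, 1.17 and 1.23 CPM in LTR8B replicates 1 to 4 (log2 fold change -1.52), and VGF, a neuropeptide precursor, was at 33.5 and 33.4 CPM against 16.4, 23.6, 18.4 and 22.8 CPM (log2 fold change -0.73). Every GFP library was above every LTR8B library for each gene. Without GFP replicate 2 the edgeR adjusted p was 0.107 for LINC01411 and 0.157 for VGF, and without GFP replicate 1 it was 0.110 for VGF. PARP16, an ADP-ribosyltransferase of the endoplasmic reticulum, was at 76.4 and 68.9 CPM against 50.02, 57.1, 53.1 and 45.4 CPM (log2 fold change -0.50). Its call ended without either GFP library (adjusted p = 0.322 and 0.119) and without LTR8B replicate 1 (0.0828) or 4 (0.0734).

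SEMA3B and SEMA3F, class 3 semaphorins that act as secreted guidance cues through neuropilins and plexins, fell. SEMA3B was at 13.4 and 19.5 CPM with the GFP guide and at 8.25, 6.90, 7.50 and 5.40 CPM with the LTR8B guide (log2 fold change -1.21, SE 0.17, edgeR adjusted p = 0.00165). SEMA3F, 78.5 kb away on the same strand of chromosome 3, was at 124 and 136 CPM against 94.5, 102, 92.8 and 109 CPM (log2 fold change -0.39, SE 0.07, edgeR adjusted p = 0.026). Neither pair of groups overlapped. Of 14 tested semaphorins and receptors these 2 fell, where 0.116% of all tested genes fell, but the list was chosen with earlier results known. SEMA3G (-0.39, adjusted p = 0.309) and the receptor PLXNA1 (-0.19, adjusted p = 0.333) came next. Without GFP replicate 2 the adjusted p was 0.119 for SEMA3B and 0.737 for SEMA3F, and SEMA3F was also lost without GFP replicate 1 (0.0883) or LTR8B replicate 1 (0.0883) or 3 (0.0597).

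The remaining decreases were small. DHRS2, a mitochondrial dehydrogenase, was at 1392 and 1353 CPM with the GFP guide and at 1056, 1088, 984 and 995 CPM with the LTR8B guide (log2 fold change -0.41, SE 0.06, edgeR adjusted p = 0.00189). The sialic acid-binding receptor SIGLEC15 fell by 0.50, the secreted factor DKK3 by 0.40, the pseudogene NCOR1P4 by 0.37, the laminin chain LAMB3 by 0.36, the ubiquitin ligase RNF19B by 0.36 and the junctophilin JPH4 by 0.34. Without GFP replicate 2 each of these 7 calls ended, at an adjusted p of 0.0579 for DHRS2, 0.303 for SIGLEC15, 0.622 for DKK3 and JPH4, 0.542 for NCOR1P4, 0.950 for LAMB3 and 0.916 for RNF19B. All but SIGLEC15 and RNF19B were lost without GFP replicate 1 too (from 0.0719 for DHRS2 to 0.266 for NCOR1P4). Without LTR8B replicate 1 or 4, DKK3, NCOR1P4, LAMB3, RNF19B and JPH4 were lost (from 0.0734 to 0.118), and without LTR8B replicate 3, NCOR1P4, LAMB3 and JPH4 (from 0.0597 to 0.0701).

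LSP1, an actin-binding protein of leukocytes, was at 2.19 and 1.70 CPM with the GFP guide and at 1.01, 0.618, 0.569 and 0.463 CPM with the LTR8B guide (log2 fold change -1.54, SE 0.30, edgeR adjusted p = 0.0331). Of 8 tested haematopoietic markers LSP1 was the 1 past the threshold, where 0.36% of all tested genes passed. It was followed by CSF1R (-0.61, adjusted p = 0.0735), LAPTM5 (-0.95, adjusted p = 0.113) and LCP1 (0.26, adjusted p = 0.226). The list median was -0.36, with 5 of the 8 negative. The 8 tested markers summed to 868 to 899 CPM with the GFP guide and 940 to 1122 CPM with the LTR8B guide. LCP1 made up most of that sum, at 847 to 881 CPM against 927 to 1110.0 CPM. Of the 15 markers on the list, the untested MS4A1 was at 0 in all 6 libraries. The part of these markers in the LSP1 result was not tested. The LSP1 call ended without either GFP library (0.346 and 0.153) and without LTR8B replicate 3 (0.0811) or 4 (0.0841).

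3 genes of the extracellular matrix list rose by small amounts. COL4A1, a basement membrane collagen chain, was at 213 and 202 CPM with the GFP guide and at 271, 268, 284 and 290 CPM in LTR8B replicates 1 to 4 (log2 fold change 0.42, SE 0.06, edgeR adjusted p = 0.00222). THBS1, the matrix protein thrombospondin-1, rose by 0.46 and SERPINH1, the collagen chaperone HSP47, by 0.43. Of 45 tested matrix genes these 3 rose and 0 fell, where 0.244% of all tested genes rose, and 27 of the 45 had a negative fold change, with a list median of -0.03. COL4A2, the partner chain of COL4A1 read from the opposite strand, was at 367 and 358 CPM against 417 to 464 CPM and just missed the threshold (0.29, edgeR adjusted p = 0.0603). Without GFP replicate 2 the adjusted p was 0.194 for COL4A1, 0.338 for THBS1 and 0.258 for SERPINH1, and without GFP replicate 1 it was 0.0985 for THBS1 and 0.284 for SERPINH1.

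Several genes of the actin cytoskeleton and of cell adhesion were among the small increases, a grouping made after their values were seen. MYH9, the heavy chain of nonmuscle myosin IIA, was at 1043 and 1030.5 CPM with the GFP guide and at 1340, 1485, 1241 and 1370 CPM with the LTR8B guide (log2 fold change 0.39, SE 0.08, edgeR adjusted p = 0.0391). The LIM domain proteins PDLIM5 and LMO7 rose by 0.42 and 0.39, the adhesion protein AMIGO2 by 0.51 and MFGE8, which binds phosphatidylserine on dying cells, by 0.53. Leaving out GFP replicate 1 or 2 ended these 5 calls, at an adjusted p of 0.270 and 0.668 for MYH9, 0.146 and 0.428 for PDLIM5, 0.468 and 0.0683 for LMO7, 0.312 and 0.567 for AMIGO2 and 0.267 and 0.0920 for MFGE8. MYH9, LMO7 and AMIGO2 were further lost without LTR8B replicate 1 or 4 (from 0.0578 to 0.0989), LMO7 without LTR8B replicate 3 (0.0701) and AMIGO2 without LTR8B replicate 2 (0.0565).

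The rest of the higher genes had roles spread over the nucleus, the secretory pathway and signalling. SUMO3, a ubiquitin-like modifier, was at 96.8 and 86.9 CPM with the GFP guide and at 142, 143, 134 and 139 CPM with the LTR8B guide (log2 fold change 0.60, SE 0.07, edgeR adjusted p = 1.77e-04), and its call held without each library in turn. The corepressor BCOR rose by 0.61, the splicing factor LUC7L2 by 0.64, RCBTB1 by 0.64, the noncoding RNA LINC03061 by 0.68, the Hippo pathway kinase LATS2 by 0.44, the transcription factor TSHZ1 by 0.50, the N-glycan trimming enzyme MOGS by 0.45, the carboxypeptidase SCPEP1 by 0.59, the lysosomal glycoprotein GPNMB by 0.61, EEIG2 by 0.65 and the Rab GTPase-activating protein TBC1D4 by 0.33. LUC7L2 shares exons with the readthrough gene FMC1-LUC7L2, which was at 0.28 (edgeR adjusted p = 0.412). Without GFP replicate 1 the adjusted p was 0.121 for RCBTB1, 0.0850 for LINC03061, 0.127 for LATS2, 0.293 for MOGS, 0.119 for SCPEP1, 0.0850 for GPNMB, 0.151 for EEIG2 and 0.163 for TBC1D4. Without GFP replicate 2 it was 0.181 for BCOR, 0.0866 for LUC7L2, 0.179 for LATS2, 0.950 for TSHZ1, 0.262 for MOGS, 0.324 for SCPEP1, 0.646 for GPNMB, 0.731 for EEIG2 and 0.737 for TBC1D4. Leaving out LTR8B replicate 1, 3 or 4 in turn also ended the calls of TSHZ1 and EEIG2, replicate 1 or 4 those of GPNMB and TBC1D4, and replicate 4 that of MOGS (from 0.0531 to 0.0894). Of the 3 called genes without a symbol, ENSG00000283633.1 was higher (0.85) and ENSG00000287064.1 lower (-0.66). Both of these lost their call without either GFP library or without LTR8B replicate 1 or 3, and ENSG00000287064.1 also without LTR8B replicate 2 (from 0.0507 to 0.646).

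Some called genes lay near each other, a pattern chosen after the values were seen. How often other tested genes form such pairs was not computed, so the count is a description alone. Of the 58 called genes with a position, 14 formed 7 pairs within 500 kb, and both members of each pair moved in the same direction. They were SP110 with SP140, AGPS with ENSG00000213963.6, SEMA3B with SEMA3F, LAMB3 with HSD11B1 (33.7 kb apart on chromosome 1), JPH4 with DHRS2 (51.3 kb, chromosome 14), TBC1D4 with LMO7 (138 kb, chromosome 13) and ARRB1 with SERPINH1 (210.4 kb, chromosome 11). The gene models of the first 2 of these pairs overlap, so reads inside the overlap may be shared. For AGPS and ENSG00000213963.6 the overlap is only at the edge of the models.

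Chromosome 13 had the highest median of the autosomes and chromosome X, again a choice made after the values were seen. Its 294 tested genes had a median log2 fold change of 0.15, against 0.01 over all genes, and 75.9% were positive, against 51.3% of all. Of these genes 7 were called, all higher (2.38% against 0.36% of all genes): FAM124A, LINC03061, RCBTB1, LATS2, COL4A1, LMO7 and TBC1D4. Relative to the mean of the GFP libraries, the median of its genes was 0.164, 0.0396, 0.148 and 0.105 on the log2 scale in LTR8B replicates 1 to 4 and within 0.0013 of 0 in both GFP libraries, whose own mean is the reference. In bins of 20 Mb the median ran from 0.08 to 0.18 beyond the first bin, which held 15 genes at -0.03. In the IFNB libraries the chromosome 13 median was 0.08, with 64.6% positive. There the library medians were -0.0423 and 0.0423 with the GFP guide and 0.0825, 0.0336, 0.0200 and 0.111 in LTR8B replicates 1 to 4, so the groups overlapped.

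Fold changes also followed base composition. Across the 16169 genes with a transcript GC content, Spearman's rho between GC content and log2 fold change was -0.31, a description across genes that share libraries. Chromosome 13 genes had a median GC content of 43.2%, against 47.9% over all genes. In 4 equal-sized bins of GC content, from lowest to highest, the chromosome 13 medians were 0.17, 0.07, 0.07 and 0.03, and those of the other chromosomes 0.09, 0.02, -0.03 and -0.07. The bin of highest GC content held 15 chromosome 13 genes. With an offset for GC content fitted per library, the chromosome 13 median was 0.08. Of the 58 called genes with a GC content, 56 kept their call, and ENSG00000287064.1 had none and was not tested. JPH4 (adjusted p = 0.0895) and NCOR1P4 (0.117) were lost, and what part GC content had in the chromosome 13 values was not tested further.

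**Figure D4:**
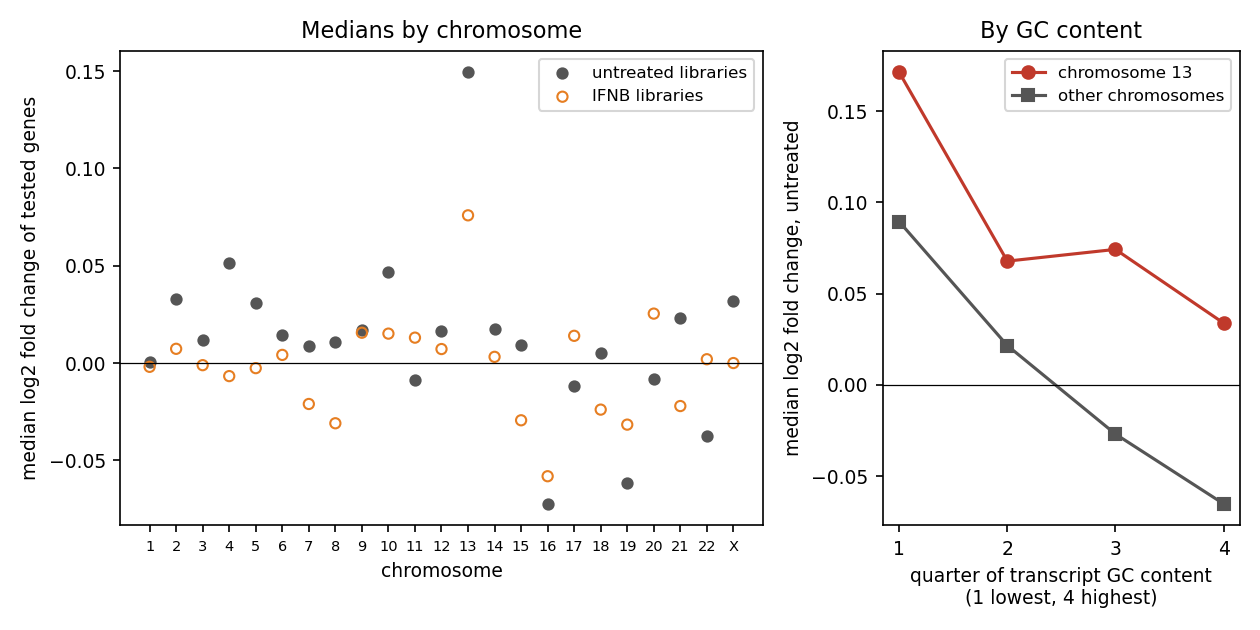
Left, median log2 fold change (LTR8B guide over GFP guide) of the tested genes of each autosome and of chromosome X, in untreated and in IFNB libraries. Right, the untreated median in each of 4 bins of transcript GC content for chromosome 13 and for the other chromosomes. Chromosome 13 is highest in the untreated libraries at 0.15 and lies above the other chromosomes in every bin.

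Interferon pathways, which SP140 restrains in immune cells, held 0 called genes. Over all tested genes 0.36% were called, so 0 calls in a list of this size is near that background. This holds too for the later lists with 0 calls. The share of all tested genes with an unadjusted p under 0.05 was 11.2%, and some lists lay above it. Of 52 tested interferon-stimulated genes 0 passed by edgeR and 8 had an unadjusted p under 0.05, with a median log2 fold change of -0.01 against 0.01 over all genes. The nearest to the threshold were the immunoproteasome subunit PSMB8 (-0.33, edgeR adjusted p = 0.191), the GTPase GBP1 (0.32, adjusted p = 0.312) and IFITM2 (-0.27, adjusted p = 0.337). Of 19 tested interferon signalling genes 0 passed and 5 had an unadjusted p under 0.05, led by STING1 (-0.34, adjusted p = 0.146), IRF3 (-0.31, adjusted p = 0.202) and JAK2 (0.34, adjusted p = 0.209). IFNB1 had at most 1 count in any untreated library, at 0.0461 CPM, and IFNA1, IFNL1, IFNL2 and IFNL3 had 0. Of 15 antigen presentation genes 0 passed and 2 had an unadjusted p under 0.05, with ERAP1 (0.22, adjusted p = 0.209), CALR (-0.13, adjusted p = 0.391) and HLA-F (1.27, adjusted p = 0.477) nearest, and HLA-F was below 0.26 CPM in all 6 libraries. Of 21 NF-kB and inflammatory genes 0 passed and 2 had an unadjusted p under 0.05, with CCL5 (-0.78, adjusted p = 0.293), TNFAIP2 (-0.70, adjusted p = 0.405) and CXCL8 (0.46, adjusted p = 0.462) nearest.

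Groups linked to SP140 by earlier work in immune cells, namely HOX genes, topoisomerases and the CCR4-NOT deadenylase with ANXA2R, also held 0 called genes by edgeR. Of 26 tested HOX genes 2 had an unadjusted p under 0.05, the median was 0.06, and HOXD10 (0.28, adjusted p = 0.366), HOXA13 (0.53, adjusted p = 0.425) and HOXC4 (0.37, adjusted p = 0.503) came nearest. Of 8 topoisomerase genes 0 had an unadjusted p under 0.05, with TOP2B (0.12, adjusted p = 0.595), TDP1 (-0.12, adjusted p = 0.638) and TOP1MT (0.10, adjusted p = 0.684) nearest. Of 19 CCR4-NOT genes 1 had an unadjusted p under 0.05, with ZFP36L2 (0.27, adjusted p = 0.298), CNOT6L (0.23, adjusted p = 0.467) and ZFP36 (0.20, adjusted p = 0.478) nearest. ANXA2R was at 0.605 and 0.707 CPM with the GFP guide and at 0.206 to 0.692 CPM with the LTR8B guide, which overlapped. Of 14 PML body genes and 24 genes of chromatin silencing 0 passed and 2 of each had an unadjusted p under 0.05, with MORC3 (0.29, adjusted p = 0.201), PIAS1 (0.19, adjusted p = 0.374), HDAC1 (-0.14, adjusted p = 0.366), MPHOSPH8 (0.19, adjusted p = 0.398) and EHMT1 (0.13, adjusted p = 0.518) among the nearest.

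In the lists around ZWILCH, SLC25A46 and LRCH3 no other member passed, where 0.36% of all tested genes passed. Of 24 tested kinetochore and spindle checkpoint genes ZWILCH was the 1 called, the list median was -0.01, and SPC24 (-0.27, edgeR adjusted p = 0.286), MIS12 (-0.17, adjusted p = 0.393) and KNL1 (0.18, adjusted p = 0.471) came next. Of 17 genes of mitochondrial fusion and fission SLC25A46 was the 1 called, the median was 0.03, and MTCH1 (-0.17, adjusted p = 0.382), MTX1 (-0.25, adjusted p = 0.421) and FIS1 (-0.20, adjusted p = 0.480) came next. Of 9 LRCH proteins and DOCK partners LRCH3 was the 1 called, and LRCH1 (0.21, adjusted p = 0.366) and LRCH4 (-0.20, adjusted p = 0.414) were among the next. The median of these 9 was 0.20, above the 0.01 over all genes.

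Growth and stress programmes held 0 called genes by edgeR in the lists for the cell cycle (27 tested, 3 with an unadjusted p under 0.05), p53 targets (20, 3), apoptosis (15, 2), stress and unfolded protein response (20, 3), heat shock (12, 0), hypoxia and glycolysis (18, 3), immediate early genes (16, 2) and the TGF-beta pathway (23, 6). The nearest to the threshold in each were PLK1 (-0.24, adjusted p = 0.263), FDXR (-0.33, adjusted p = 0.202), BIRC2 (0.25, adjusted p = 0.373), STC2 (0.35, adjusted p = 0.125), HSPH1 (0.14, adjusted p = 0.489), HK2 (0.22, adjusted p = 0.312), NR4A3 (0.75, adjusted p = 0.229) and LTBP1 (-0.28, adjusted p = 0.284). Their list medians lay between -0.07 and 0.07.

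Other lists leaned one way without a call. Of 27 tested genes of cholesterol synthesis 21 had a negative fold change and 11 an unadjusted p under 0.05, with a median of -0.11. HSD17B7, an enzyme of the pathway (-0.33, edgeR adjusted p = 0.182), and FDFT1, squalene synthase (-0.21, adjusted p = 0.189), were among those nearest to the threshold. Of 45 ribosomal protein genes 43 were negative and 17 had an unadjusted p under 0.05, with a median of -0.13 in the untreated and 0.01 in the IFNB libraries. The 13 mitochondrially encoded genes were all positive, with a median of 0.15 in the untreated and -0.15 in the IFNB libraries, and 1 had an unadjusted p under 0.05. The medians of both lists thus changed sign between the 2 sets of libraries.

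Neither the mesenchymal markers of the line itself nor the epithelial, neural and endothelial markers held a call. Of the tested epithelial (3), neural (5), endothelial (4) and mesenchymal (9) markers 0 passed by edgeR, with 1, 1, 1 and 4 at an unadjusted p under 0.05. Of the mesenchymal markers 8 of 9 were negative, with a median of -0.14, and all 3 epithelial markers were negative, with a median of -0.22. The tested epithelial markers summed to 421 to 445 CPM with the GFP guide and 358 to 420 CPM with the LTR8B guide. Sums of tested members were 156 to 165 and 147 to 173 CPM for neural markers. They were 11.7 to 12.2 and 8.74 to 11.6 CPM for endothelial and 4094 to 4215 and 3816 to 4530 CPM for mesenchymal markers. The epithelial and endothelial sums did not overlap between the guides, nor did 19.6% of all tested genes. Epithelial sums came as near as 420.6 CPM with the GFP guide and 420.2 CPM with the LTR8B guide. KRT8 and KRT18 made up most of them. The part of these markers in the results was not tested.

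The same lines were also measured in the IFNB libraries. These enter no group mean of the untreated contrast, but they shared its filter and its estimate of the spread, and with the 6 untreated libraries fitted alone 43 of the 59 genes were called. All 59 genes had the same sign there, 58 of them with no overlap between the groups (19% of all tested genes), and 40 passed the threshold (0.354% of all tested genes did). The median absolute log2 fold change of the 59 was 0.66 in both sets. Examples beside their untreated values were LRCH3 (2.07 and 2.13), SLC25A46 (2.06 and 2.28), ZWILCH (1.74 and 1.84), FRG2 (-3.04 and -2.96) and SP140 (-4.67 and -4.55). The largest of the 19 that did not pass with IFNB were SUSD2 (2.35, edgeR adjusted p = 0.0597) and SPNS3 (2.25, adjusted p = 0.0779). The IFNB libraries come from the same 2 lines, so this repeats the difference between the lines and not the making of the lines.

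**Figure D5:**
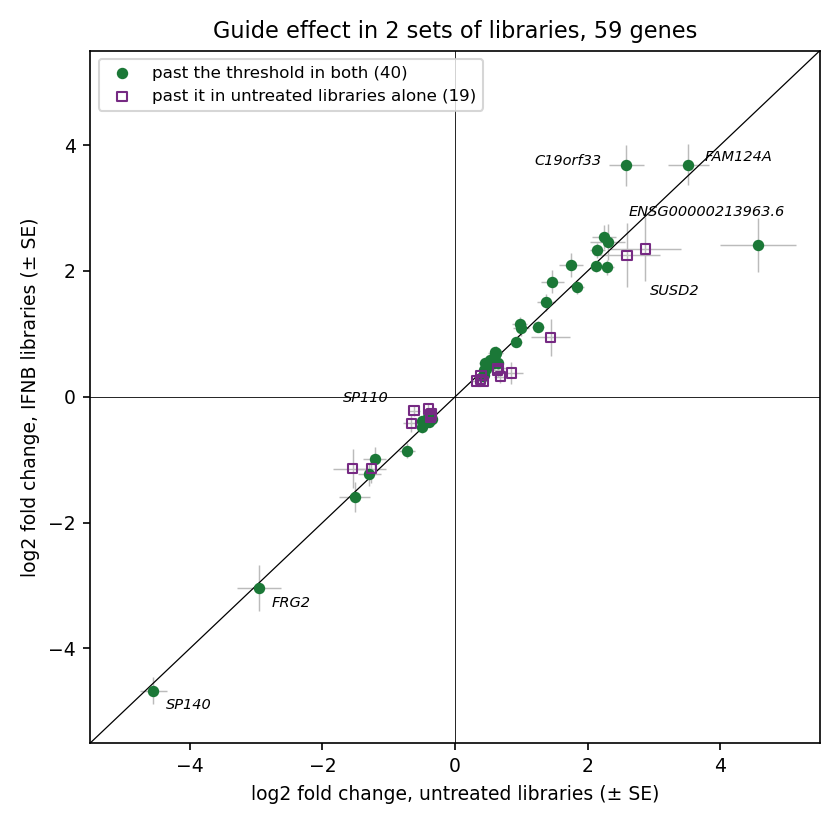
Log2 fold change (LTR8B guide over GFP guide, ± SE) of the 59 genes called in untreated libraries, in untreated (x axis) and IFNB libraries (y axis), with the line of equal change. All points lie in the lower left or upper right quadrant, 40 past the threshold in both sets (filled) and 19 in untreated libraries alone (open), and the untreated value of ENSG00000213963.6 rests on 1 count in each GFP library.

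No gene passed the test of a difference in guide effect between treatments (0 of 16393, 0%, edgeR, with 489 at an unadjusted p under 0.05). DESeq2 and limma-voom also gave 0. The edgeR test gave 4 of the 59 an unadjusted value under 0.05, with 0.0033 for SP110, 0.0149 for LINC03061 (difference -0.36), 0.0192 for ENSG00000213963.6 and 0.0297 for C19orf33 (difference 1.09). After adjustment each was at 0.996. C19orf33 was at 0.381 and 0.497 CPM in the GFP IFNB libraries and at 4.31 to 6.57 CPM in the LTR8B IFNB libraries.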

How the data were processed

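PolyA RNA libraries were analysed from the whole-number counts per gene that the authors deposited. Per the submitters' processing notes Salmon 0.13.1, DESeq2 1.38.3 and hg38 were used; their roles, the annotation and strand use are not given in the sources used here. A second deposited table of normalized values was not used. Columns were matched to samples by the knockdown, treatment and replicate number that their names carry.

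Of 60669 gene identifiers 25271 had 0 counts throughout, 42052 had a symbol and 58482 a GENCODE release 29 position. Counts of all 12 libraries were fitted with edgeR 4.0.16 (R 4.3.3): filterByExpr on the 4 groups (minimum count 10, minimum total 15), TMM factors, a robust quasi-likelihood fit with 1 mean per group, and Benjamini-Hochberg adjustment over 16393 genes at 0.05. Contrasts were the guide effect in untreated and in IFNB libraries and their difference. CPM is TMM-scaled counts per 1e+06, and SE is that of the log2 fold change. SP140 was also tested by exact permutation of log2(CPM + 1). The edgeR fit was tested on simulated data. Alternatives were DESeq2 1.42.0, limma-voom (limma 3.58.1), RLE factors, no filter, the 6 libraries compared alone, a replicate block, each library left out and, for SP140, a pseudocount of 0.1. An offset for transcript GC content and the chromosome 13 medians were added after seeing the data. Summaries used SciPy 1.17.1, NumPy 2.4.6 and pandas 2.3.3 under Python 3.11.15, and figures matplotlib 3.10.9.

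Named genes were the 4 SP100 family members, every called gene with a symbol, per-library values for the 15 largest increases and 10 largest decreases among those with a mean CPM of at least 1, list members called or up to 3 nearest to the threshold, and genes within 1 Mb of SP140. A few genes that the rule names are not reported here. Other genes, and groups stated so, were chosen after their values were seen. The genes and the 34 gene lists were chosen with earlier results of these data known, so lists are described by counts and medians with no test of their own. For overlapping or antisense genes, and for near-identical copies, the counting may have split reads.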

Additional observations from a re-analysis of the deposited data

Results flagged for a closer look

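SP110 in LTR8B untreated replicate 4 stood apart from its group. It was at 19.5 CPM there and between 16.1 and 16.3 CPM in the other LTR8B untreated libraries. The gap was 0.927 of the group's range, above Dixon's 95% critical value for 4 samples. The level lay below both GFP libraries (24.8 and 27.5 CPM). Levels of 61 genes were examined in this way, and chance flags about 1 in 20 such groups.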

How the results depend on the processing

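Leaving out each untreated library in turn gave 22 to 94 genes changed with the LTR8B guide in place of 59, and 0 to 1 genes with a guide effect that differed between treatments. Leaving out each IFNB library gave 21 to 49 in place of 58 in those libraries. DESeq2 gave 179 and 119 genes in untreated and IFNB libraries, offsets for GC content 118 and 96, and testing without a low-count filter 325 and 260, with 13 for the difference between treatments. Of the 59, DESeq2 kept 58, limma-voom 56, RLE factors 59, no filter 58 and the fit on the 6 libraries alone 43. GC offsets kept 56 of the 58 with a GC content. The SP140 difference was -4.61 on the log2(CPM + 0.1) scale. SP140L turned sign when libraries were left out, from -0.0781 to 0.0413 (0.0413 without GFP replicate 1 and 0.0217 without LTR8B replicate 1), against -0.02 with all libraries. Replicate numbers do not pair the libraries of the 2 guides: the correlations of same-numbered GFP and LTR8B untreated deviations were -0.104 and -0.054. Same-numbered untreated and IFNB libraries of 1 guide correlated at 0.146 for GFP and at 0.278, 0.288, 0.0794 and 0.268 for LTR8B, and both treatments were fitted as unpaired. With the numbers as a replicate block 53 genes were called, 41 of the 59 among them, with 56 in IFNB libraries and 0 for the difference. With a GFP library left out, 1 library remains and is assumed to vary like the other groups. Depth limits genes near 3 counts per library.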

Other observations

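SMIM11, chosen after its values were seen, had a large fold change that did not pass the threshold. It was at 26.6 and 17.5 CPM in the GFP untreated libraries and at 2.44, 2.11, 2.31 and 1.49 CPM in the LTR8B untreated libraries (log2 fold change -3.38, edgeR adjusted p = 0.268). In IFNB libraries it was at 23.3 and 3.23 CPM with the GFP guide and at 1.63, 25.97, 25.9 and 15.95 CPM with the LTR8B guide, so that libraries of each genotype were high or low.

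TERC, the RNA template of telomerase, was also chosen after its values were seen. The libraries were of polyA RNA, so its values do not measure all TERC RNA. TERC was at 0.454 and 0.801 CPM in the GFP untreated libraries and at 0.154 CPM or less in the LTR8B untreated libraries (edgeR adjusted p = 0.0644). The LTR8B values reached no higher than the top of the limit of 3 counts, 0.104 to 0.155 CPM. With IFNB it was at 0.620 and 0.746 CPM with the GFP guide and at 0.212 CPM or less with the LTR8B guide (edgeR adjusted p = 0.145).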
